A study of Mus musculus with 6 samples.

Results

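Retinoid uptake and metabolism was followed through 7 genes, Scarb1, Bco1, Isx, Rbp2, Lrat, Rdh7 and Aldh1a1, which were taken by symbol from the deposited gene table, where each matched 1 entry, 7 of 46078 in all. Small intestinal epithelium came from untreated aged mice (20 to 22 months) and untreated young mice (2 to 3 months), all of strain C57BL/6JRj, 3 libraries per age. Cells were released with EDTA and trypsin and sorted as EpCam+ and CD45-, and poly(A) RNA was sequenced from a stranded library. According to the design text, the cells were from the proximal part of the organ and from 3 mice of each age, so a library was read as 1 mouse. In the gene tests, the p-values weigh the difference between the ages against the spread of libraries within an age. The comparison asks which genes change in the gut epithelium with age. All positions below are GRCm38.

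Vitamin A reaches the gut epithelium as retinyl esters and as plant carotenoids. Absorptive enterocytes take carotenoids up with the scavenger receptor Scarb1, cleave beta-carotene to retinal with the oxygenase Bco1, bind retinol and retinal to the cellular carrier Rbp2, and esterify retinol with Lrat for export in chylomicrons. The homeobox factor Isx, itself induced by retinoic acid, represses Scarb1 and Bco1 in mice and so closes a feedback loop. Some retinoid is instead oxidised on the spot, from retinol to retinal by dehydrogenases such as Rdh7 and from retinal to retinoic acid by Aldh1a1.

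Total counts per library were 45328055 to 55670388 in aged and 41479573 to 58989166 in young libraries. The sorted population carried its epithelial label, with Epcam at 1502 to 1523 CPM (the count scaled to library size with TMM factors) in aged and 1635 to 1669 CPM in young libraries, while Ptprc, which encodes CD45, lay below 0.3 CPM in all 6. Gata4, a regulator of the proximal small intestine, stood at 346 to 367 CPM in aged and 329 to 358 CPM in young libraries, and the ileal genes Fabp6 and Slc10a2 at 0.526 to 1.35 CPM in aged and 0.288 to 1.03 CPM in young libraries. These genes were picked from longer lists with mixed levels. Among the distal genes Slc51a stood at 37.0 to 66.4 CPM in aged and 52.5 to 73.3 CPM in young libraries. Among the proximal genes Cybrd1 stood at 1.55 to 2.05 CPM in aged and 3.04 to 4.03 CPM in young libraries. The region of origin therefore rests on the design text. A list of 14 absorptive enterocyte genes summed to 5093 to 7112 CPM in aged and 6263 to 7960 CPM in young libraries, lowest in aged replicate 2 and highest in young replicate 1. In such bulk samples, fewer cells of a type and less RNA per cell cannot be told apart. Markers of Paneth cells, the antimicrobial cells of the crypt, summed to 6361 to 6830 CPM in aged and 8427 to 15560 CPM in young libraries with 1 of 6 called lower by edgeR (the test is described below), the defensin Defa17. Goblet cell markers summed to 13132 to 14547 CPM in aged and 15025 to 22605 CPM in young libraries, with 1 of 6 called lower, Tff3, a trefoil peptide of mucus. Enteroendocrine markers summed to 2326.5 to 2609 CPM in aged and 2047 to 2719 CPM in young libraries, with 2 of 6 called lower, the hormone genes Gip and Sst. Of these 6 markers, 4 had log2 fold changes below 0 and 2 above, Chga (0.20) and Chgb (0.23). Leukocyte markers summed to 35.9 to 43.01 CPM in aged and 25.2 to 34.3 CPM in young libraries, with 1 of 6 tested called higher, the integrin gene Itgam. Itgam alone made up 20.3 to 22.4 CPM in aged and 11.8 to 13.2 CPM in young libraries. Of the 6 tested, 4 had log2 fold changes above 0 and 2 below, Lyz2 (-0.53) and Ptprc (-0.06). The 5 called genes, Chga, Chgb and Lyz2 were named after their values were seen. The part of these cell types in the results below was not tested. The crypt stem cell and tuft cell lists held no gene called by edgeR, with 0 of 5 and 2 of 4 tested at an unadjusted p below 0.05. Such a p was found for 4 of 6 Paneth, 4 of 6 goblet, 3 of 6 enteroendocrine and 1 of 6 tested leukocyte markers. Over all genes tested, 9.23% had such a p and 1.41% were called.

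No difference between aged and young epithelium passed the test in any of the 7 genes. By edgeR's quasi-likelihood test with Benjamini-Hochberg adjustment over 14923 genes, 0 of the 7 passed 0.05, where 1.41% of all genes tested did (0.623% higher and 0.784% lower in aged). None of the 7 had an unadjusted p below 0.05 either, a mark that 9.23% of all genes passed, and DESeq2 and limma-voom also called 0 of the 7. In every one of them the libraries of the 2 ages overlapped, as they did in all but 13.8% of the genes tested. The log2 fold changes, aged over young, ran from -0.55 (Rdh7) to 0.11 (Scarb1), with 5 below 0 and 2 above and a median of -0.06, beside a median of 0.0065 over all genes. The spread between libraries was wide for Aldh1a1, Rdh7 and Rbp2 (SD of log2 CPM over 6 libraries 0.63, 0.53 and 0.38) and narrower for Isx, Bco1, Lrat and Scarb1 (0.25, 0.20, 0.18 and 0.09).

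**Figure D1:**
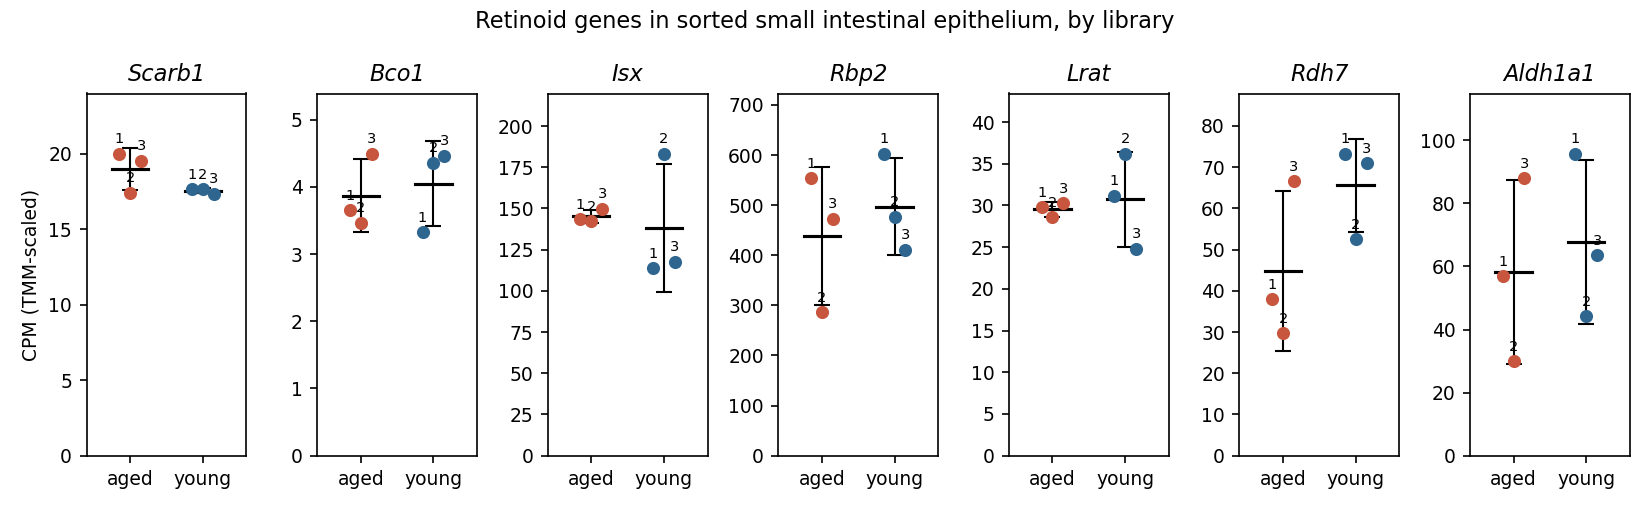
Level of each of the 7 genes in CPM (TMM-scaled, each axis from 0) in the 3 aged (left) and 3 young (right) libraries. Dots are libraries with their replicate number, lines means and bars the SD; the ages overlap in all 7 genes, and aged replicate 2 is the lowest of the 6 libraries for Rbp2, Rdh7 and Aldh1a1.

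At the point of entry, Scarb1 (ENSMUSG00000037936, chr5:125277087-125341094, minus strand), the receptor that also takes up cholesterol from lipoproteins, stood at 20.0, 17.4 and 19.5 CPM in aged replicates 1 to 3, against 17.6, 17.6 and 17.3 CPM in young replicates 1 to 3. Aged replicate 2 lay among the young libraries, and aged replicates 1 and 3 lay above them. The means were 19.0 ± 1.37 CPM in aged and 17.5 ± 0.174 CPM in young libraries (SD, n = 3 each), a fold of 1.08 with a 95% interval of 0.934 to 1.26 (edgeR adjusted p = 0.828). This was the most evenly expressed of the 7 genes, with a ratio of 1.15 between its highest and lowest library. The interval of this fit, not adjusted for the number of genes, leaves out a fall below 0.934-fold and a rise above 1.26-fold. That range depends on the scaling. With libraries scaled to the enterocyte genes, the log2 fold change had an SE of 0.25, beside 0.09 with TMM factors.

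Bco1 (ENSMUSG00000031845, chr8:117095854-117133720, plus strand), the enzyme that splits beta-carotene in the middle, had the fewest counts of the 7, with 158 to 252 counts per aged and 146 to 258 counts per young library. It stood at 3.65, 3.47 and 4.49 CPM in aged replicates 1 to 3, against 3.32, 4.36 and 4.47 CPM in young replicates 1 to 3. The highest and the lowest library of each age lay close to those of the other. The means were 3.87 ± 0.546 CPM in aged and 4.05 ± 0.633 CPM in young libraries, a fold of 0.956 (95% interval 0.715 to 1.279; edgeR adjusted p = 0.969). The sign of this difference turned without aged replicate 2 (log2 fold change 0.0032) and without young replicate 3 (0.0084).

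Isx (ENSMUSG00000031621, chr8:74873173-74893506, plus strand), the repressor of both genes, was uniform in aged and variable in young libraries. It stood at 143, 142 and 149.9 CPM in aged replicates 1 to 3, against 114, 183 and 118 CPM in young replicates 1 to 3. All 3 aged libraries lay inside the range of the young ones. The means were 145 ± 4.09 CPM in aged and 138 ± 38.9 CPM in young libraries, a fold of 1.05 (95% interval 0.803 to 1.37; edgeR adjusted p = 0.960). Without young replicate 2, its highest library, the log2 fold change was 0.32 (edgeR adjusted p = 0.0721); without young replicate 1 or young replicate 3 it was -0.05 and -0.03.

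Rbp2 (ENSMUSG00000032454, chr9:98486115-98509781, plus strand), a carrier found chiefly in the small intestine, had the most counts. It stood at 554, 286 and 473 CPM in aged replicates 1 to 3, against 602, 477 and 411 CPM in young replicates 1 to 3. Aged replicate 2 was the lowest of the 6 libraries and young replicate 1 the highest, the same order at both ends as in the enterocyte list. The means were 438 ± 138 CPM in aged and 497 ± 97.1 CPM in young libraries, a fold of 0.881 (95% interval 0.584 to 1.33; edgeR adjusted p = 0.908). The sign turned without aged replicate 2 (log2 fold change 0.04).

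Lrat (ENSMUSG00000028003, chr3:82892579-82903973, minus strand), which makes the retinyl esters that leave in chylomicrons, stood at 29.8, 28.6 and 30.3 CPM in aged replicates 1 to 3, against 31.2, 36.2 and 24.8 CPM in young replicates 1 to 3. As with Isx, the aged libraries were close together and lay within the range of the young libraries. The means were 29.5 ± 0.884 CPM in aged and 30.7 ± 5.71 CPM in young libraries, a fold of 0.961 (95% interval 0.785 to 1.18; edgeR adjusted p = 0.956). Without young replicate 2 the sign turned (log2 fold change 0.07).

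Rdh7 (ENSMUSG00000040134, chr10:127884028-127888817, minus strand), a short-chain dehydrogenase that oxidises retinol and that gut bacteria are known to repress in mouse epithelium, had the lowest fold change of the 7. It stood at 38.0, 29.8 and 66.7 CPM in aged replicates 1 to 3, against 73.2, 52.5 and 70.9 CPM in young replicates 1 to 3. Aged replicates 1 and 2 lay below all young libraries, and aged replicate 3 lay between young replicates 2 and 3. The means were 44.8 ± 19.4 CPM in aged and 65.6 ± 11.3 CPM in young libraries, a fold of 0.685 whose 95% interval of 0.411 to 1.14 includes no change (edgeR adjusted p = 0.717, unadjusted p = 0.121). Without aged replicate 3 the log2 fold change was -0.96 (edgeR adjusted p = 0.0382), the only call of any of the 7 genes in 16 alternative analyses; without aged replicate 2 it was -0.33 (edgeR adjusted p = 0.999).

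Of the 50-base words in Rdh7 transcripts 12.9% also occur in transcripts of other genes, most in the pseudogene Rdh18-ps, so part of its reads may not have been placed uniquely. Rdh18-ps itself held 0 to 2 counts per aged and 1 to 4 counts per young library. For Aldh1a1 the share was 3.06%, all in its neighbour Aldh1a7, for Bco1 1.49% and for Scarb1 0.0703%, and for Rbp2, Lrat and Isx it was 0. No exon of the 7 genes overlapped an exon of another annotated gene.

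Aldh1a1 (ENSMUSG00000053279, chr19:20492715-20643465, plus strand), which forms retinoic acid from retinal, varied the most between libraries. It stood at 56.8, 29.9 and 88.0 CPM in aged replicates 1 to 3, against 95.7, 44.2 and 63.6 CPM in young replicates 1 to 3. The ages interleaved, and the highest library held 3.20 times the lowest. The means were 58.2 ± 29.1 CPM in aged and 67.8 ± 26.0 CPM in young libraries, a fold of 0.860 (95% interval 0.392 to 1.89; edgeR adjusted p = 0.954). With so wide an interval neither a fall to 0.392-fold nor a rise of 1.89-fold was outside what these libraries allow. The sign turned without aged replicate 2 (log2 fold change 0.09) and without young replicate 1 (0.11).

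Compared per length of merged exon, Rbp2 led, with 297 to 576 CPM per kilobase in aged and 428 to 626 in young libraries. Isx followed at 79.3 to 83.6 CPM per kilobase in aged and 63.5 to 102 in young libraries, with no overlap with Rbp2 or with the next gene. Rdh7 came next at 17.7 to 39.7 in aged and 31.3 to 43.6 in young libraries, then Aldh1a1 at 6.05 to 17.8 in aged and 8.96 to 19.4 in young libraries. These neighbours overlapped over the 6 libraries, although Rdh7 was higher than Aldh1a1 in each library. Lrat, at 5.34 to 5.66 in aged and 4.63 to 6.76 in young libraries, overlapped Aldh1a1 in the same way. Scarb1 (2.05 to 2.35 in aged, 2.04 to 2.07 in young) and Bco1 (1.36 to 1.77 in aged, 1.31 to 1.76 in young) closed the order without overlap. The order of the 7 genes was the same within every library. It also depends on the annotated length, which merges the exons of all transcripts. That gave 8500 bases over 11 transcripts for Scarb1, against 5351 bases in 1 transcript for Lrat. The order by the length of single transcripts was not tested.

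**Figure D2:**
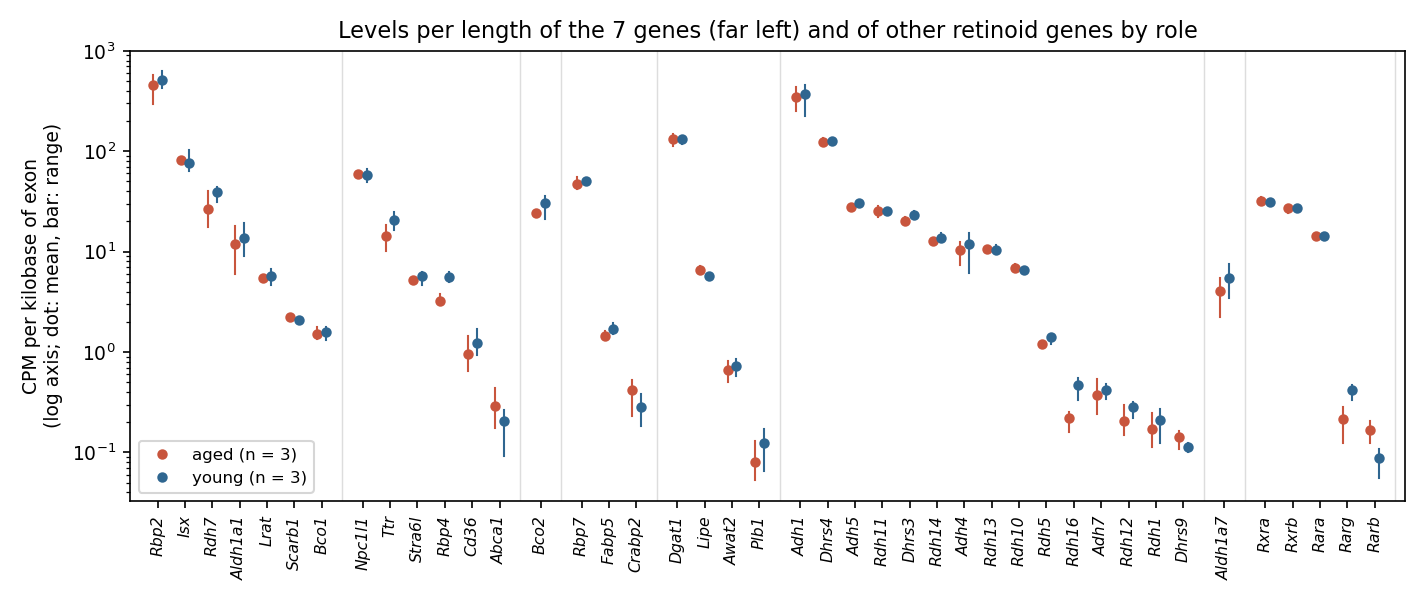
CPM per kilobase of merged exon (log axis) for the 7 genes at the far left and for other retinoid genes that passed the filter on low counts, by role; orange (aged) stands left of blue (young), dots are means and bars the range of 3 libraries. Rbp2 is the highest of the 7 and Bco1 the lowest in both ages.

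Aldh1a1 made up 72.8, 72.7 and 76.2% of the summed CPM per kilobase of Aldh1a1, Aldh1a2, Aldh1a3, Aldh1a7 and Aldh8a1 in aged libraries, against 72.0, 71.7 and 69.5% in young libraries, beside a 3.20-fold range of its level. Every aged library lay above every young one in this share, and no test was made of it. In level, the ages did not overlap in 13.8% of all genes tested. Aldh1a7, a close relative of Aldh1a1 in mice, made up 23.6 to 27.0% in aged and 27.6 to 29.99% in young libraries. Bco1 was the lesser of the carotenoid oxygenases, with 5.60 to 6.31% of the sum of Bco1 and Bco2 in aged and 3.64 to 7.44% in young libraries. The ages also overlapped in the shares of Rbp2 among cellular binding proteins and of Lrat in the sum of Lrat and Dgat1. Bco2, which cleaves carotenoids off centre, stood at 51.3, 46.4 and 55.6 CPM in aged replicates 1 to 3, against 73.1, 45.2 and 76.1 CPM in young replicates 1 to 3.

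The promoters of 6 of the 7 genes were found in RefSeq (GRCm38.p6), all but Scarb1. They are shown for Rbp2 and Bco1, the highest and the lowest per length, which share a word, and for Isx and Aldh1a1, whose library patterns differ most from each other, 5′ to 3′ on the gene's strand. Each window ends before the RefSeq or the GENCODE transcript start, whichever comes first: 0 bases lie between its end and the RefSeq start in Rbp2, 11 in Bco1, 1 in Isx and 7 in Aldh1a1. Aldh1a1 and Rdh7 have 2 RefSeq starts each, and only the start nearest to a main GENCODE transcript start was used. The windows of Rbp2 and Aldh1a1 lie inside the gene spans given above, so other starts of these genes were not searched. Capitals mark the word CAAAGGTCA read on the reverse strand; it ends in AGGTCA, the hexamer that many nuclear receptors bind.
Rbp2, chr9:98490337-98490536 (+): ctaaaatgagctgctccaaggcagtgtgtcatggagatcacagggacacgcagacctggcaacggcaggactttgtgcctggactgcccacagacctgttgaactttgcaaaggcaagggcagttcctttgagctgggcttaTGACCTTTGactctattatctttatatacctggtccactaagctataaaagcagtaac
Bco1, chr8:117095654-117095853 (+): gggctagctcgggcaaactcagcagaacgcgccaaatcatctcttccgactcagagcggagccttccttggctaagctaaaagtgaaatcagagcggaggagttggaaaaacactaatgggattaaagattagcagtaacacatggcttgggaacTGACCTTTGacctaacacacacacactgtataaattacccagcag
Isx, chr8:74872973-74873172 (+): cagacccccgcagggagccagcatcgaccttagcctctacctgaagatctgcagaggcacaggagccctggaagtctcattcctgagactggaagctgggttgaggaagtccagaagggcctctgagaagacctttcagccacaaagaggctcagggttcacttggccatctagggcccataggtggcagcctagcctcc
Aldh1a1, chr19:20601761-20601960 (+): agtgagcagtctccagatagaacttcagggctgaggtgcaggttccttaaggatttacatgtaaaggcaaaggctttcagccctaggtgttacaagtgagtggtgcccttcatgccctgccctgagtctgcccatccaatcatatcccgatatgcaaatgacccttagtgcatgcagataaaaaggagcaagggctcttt

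Counted from the RefSeq start, the word began at position -58 in Rbp2 and at position -56 in Bco1, where it lies at -45 from the end of the printed window. It was not found in the windows of Lrat, Isx, Aldh1a1 and Rdh7, and 0.478% of 32851 mouse promoter windows of 300 bases hold it on either strand. In Bco1 it was part of a full direct repeat of AGGTCA with 1 base between the copies, which 0.0396% of windows hold on either strand; the repeat with 5 bases between, a form that retinoic acid receptors bind, was in none of the 6. The words overlap, and they were chosen after these promoters had been read, so the matches describe the sequence and no site was measured. Rbp2 and Bco1, the genes that share the word, differed in their library patterns: in aged replicate 2 Rbp2 stood at -0.67 from its own mean on the log2 scale and Bco1 at -0.18.

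Over the 6 libraries the 7 genes differed in how closely they ran with the enterocyte list. Rbp2 deviated from its own mean log2 CPM by 0.28, -0.67 and 0.06 in aged replicates 1 to 3 and by 0.41, 0.07 and -0.14 in young replicates 1 to 3. The mean of the 14 enterocyte genes deviated by 0.10, -0.51 and 0.05 in aged replicates 1 to 3 and by 0.39, 0.03 and -0.06 in young replicates 1 to 3. Rbp2 thus ran close to the enterocyte genes in both ages.

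Rdh7 and Aldh1a1 shared the low value of aged replicate 2 (-0.81 and -0.97 from their means) and the high one of young replicate 1 (0.48 and 0.71). Elsewhere they left the enterocyte genes: Rdh7 stood at -0.46 in aged replicate 1, and Aldh1a1 at 0.59 in aged replicate 3 and -0.40 in young replicate 2. Isx ran the other way in young replicate 1, where the enterocyte list was highest and Isx stood at -0.30. Lrat, Bco1 and Scarb1 ranged from -0.27 to 0.27, and in aged replicate 2 they stood at -0.07, -0.18 and -0.07, where the enterocyte mean stood at -0.51.

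**Figure D3:**
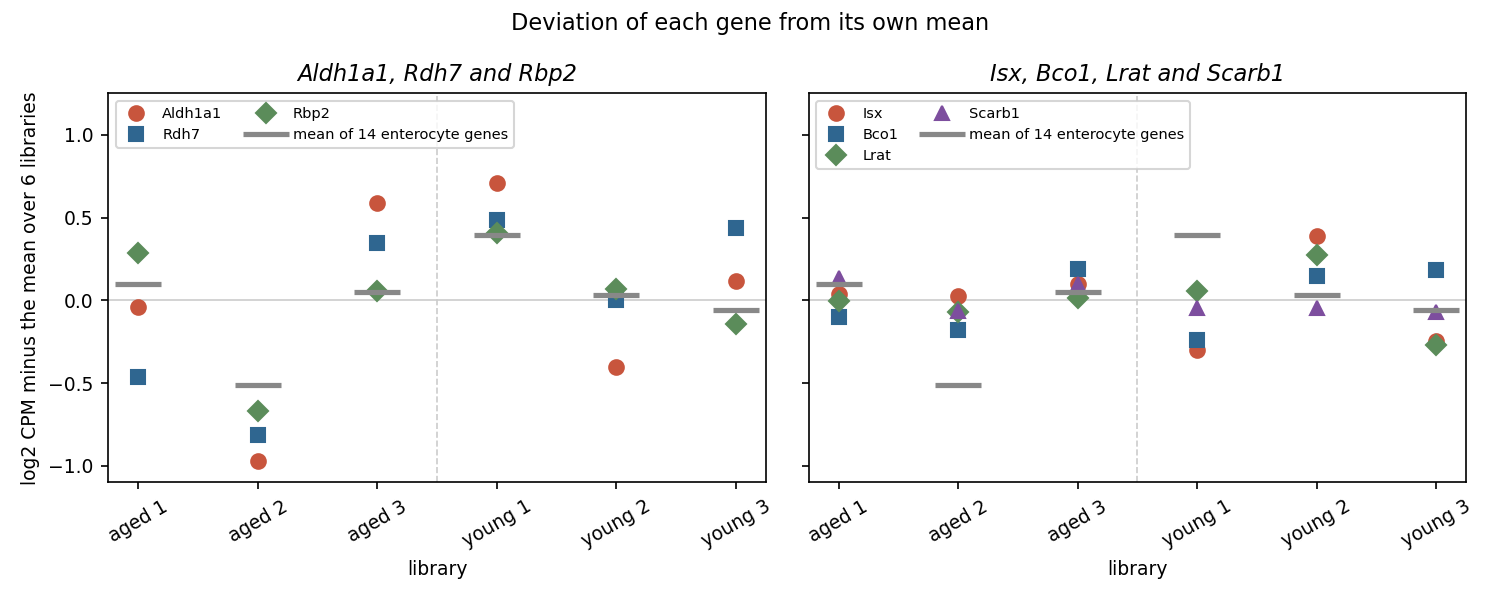
Log2 CPM of each gene minus its own mean over the 6 libraries, aged libraries left and young right of the dashed line; grey bars give the mean of 14 absorptive enterocyte genes. In aged replicate 2 Aldh1a1, Rdh7 and Rbp2 lie at -0.97, -0.81 and -0.67, while Isx, Lrat, Bco1 and Scarb1 lie between -0.18 and 0.02.

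Set against the geometric mean of the enterocyte genes in the same library, the SD of Rbp2 over the 6 libraries on the log2 scale was 0.12, where its log2 CPM had an SD of 0.38. The SD was also smaller for Aldh1a1 (0.41, beside 0.63 for log2 CPM) and Rdh7 (0.39, beside 0.53). It was greater for Isx (0.43, beside 0.25 for log2 CPM), Bco1 (0.36, beside 0.20), Lrat (0.29, beside 0.18) and Scarb1 (0.28, beside 0.09). On this scale Scarb1 was the single gene of the 7 whose ages did not overlap, at -4.13, -3.72 and -4.11 in aged replicates 1 to 3, against -4.60, -4.24 and -4.18 in young replicates 1 to 3; by that rule 5.13% of all genes stood higher and 1.84% lower in aged libraries. With libraries scaled to the enterocyte genes in the edgeR fit, the log2 fold change of Scarb1 was 0.22 (edgeR adjusted p = 0.976), and the median of all genes shifted to 0.13.

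Ratios between the genes within a library, which do not depend on scaling, gave 5 comparisons, and with 3 libraries per age an exact permutation test cannot give a p below 0.1. Rdh7 over Lrat, oxidation against storage of retinol, was 0.35, 0.06 and 1.14 on the log2 scale in aged replicates 1 to 3, against 1.23, 0.54 and 1.52 in young replicates 1 to 3. The ages overlapped (means 0.52 ± 0.56 in aged and 1.09 ± 0.50 in young libraries, SD, n = 3 each; exact two-sided permutation p = 0.2, Benjamini-Hochberg adjusted p = 0.5 over the 5 ratios). Aldh1a1 over Rdh7, successive steps to retinoic acid, was 0.58, 0.01 and 0.40 in aged replicates 1 to 3, against 0.39, -0.25 and -0.16 in young replicates 1 to 3 (exact two-sided permutation p = 0.2, adjusted p = 0.5). The other 3 ratios differed between the ages by less. The difference, aged minus young, was 0.17 for Isx over Bco1 (exact two-sided permutation p = 0.7), -0.0063 for Isx over Scarb1 (exact p = 1) and 0.18 for Lrat over Rbp2 (exact p = 0.6), with adjusted p of 0.875, 1 and 0.875. In Isx over Scarb1 the aged libraries spanned 2.84 to 3.03 and the young libraries 2.69 to 3.38.

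**Figure D4:**
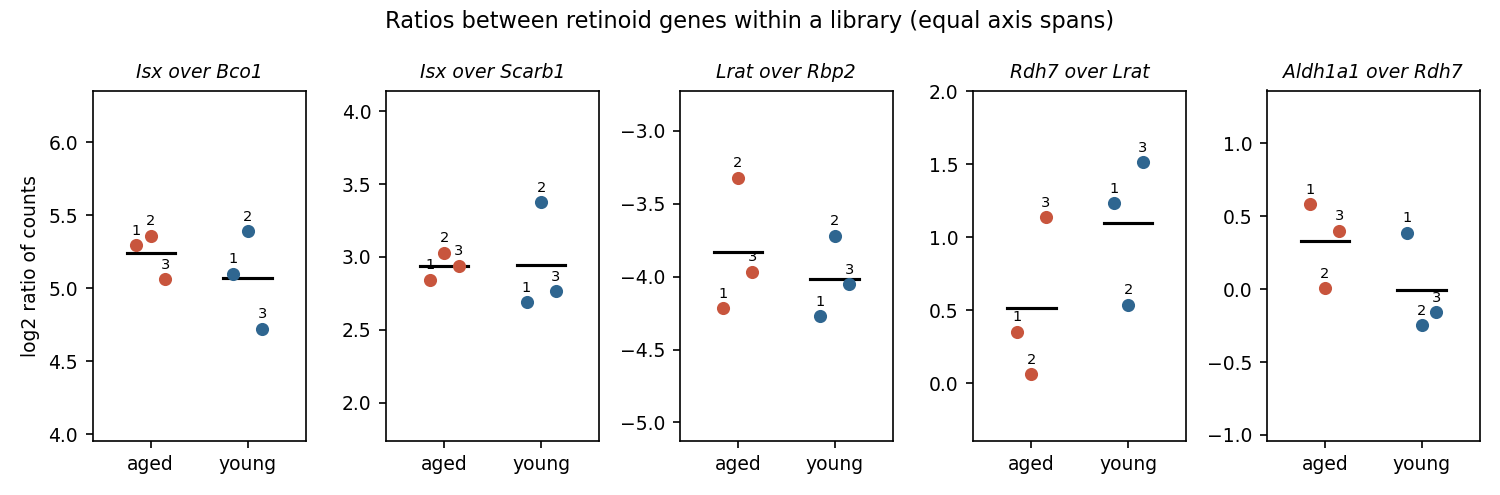
Log2 ratio of raw counts between genes of the same library, aged left and young right, with axes of equal span; dots are libraries with their replicate number and lines are means. The ages overlap in all 5 ratios.

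The genes whose library pattern was most alike were sought for the 3 of the 7 genes that varied most, by the root mean square difference of centred log2 CPM over 6 libraries among 10358 genes. For Aldh1a1 the nearest was Aldh1a7 (difference 0.14), followed by Cyp4f15 (0.18), Ugt2b5 (0.20), Sult1c2 (0.20) and Mme (0.21). Aldh1a7, its neighbour on chromosome 19, stood at 8.83, 4.63 and 11.4 CPM in aged replicates 1 to 3, against 15.5, 7.14 and 11.5 CPM in young replicates 1 to 3, and shares with Aldh1a1 the 50-base words counted above. For Rdh7 the nearest were Gkn3 (0.10), Ttc39c (0.10), Ugt2b36 (0.11), Mep1a (0.12) and Cndp1 (0.15). Mep1a, a brush border metalloprotease subunit, stood at 15.6, 13.9 and 28.3 CPM in aged replicates 1 to 3, against 30.3, 20.5 and 25.01 CPM in young replicates 1 to 3. For Rbp2 the nearest were Sema6a (0.11), Cidec (0.11), Cyp2d26 (0.12), Treh (0.12) and Lipa (0.13). Treh, the brush border trehalase, stood at 60.9, 31.8 and 44.9 CPM in aged replicates 1 to 3, against 75.3, 54.6 and 43.3 CPM in young replicates 1 to 3. Each of these 15 genes was lowest in aged replicate 2, as were Aldh1a1, Rdh7 and Rbp2, and none was called by edgeR (adjusted p from 0.498 to 0.989). Both traits follow largely from the choice of these genes by likeness to uncalled genes with that low library, so neither is a separate result.

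Of 54 other genes of the retinoid pathway and its targets, 38 passed the filter on low counts and 0 passed the edgeR test at 0.05, beside 1.41% of all genes; limma-voom also called 0 and DESeq2 called 2. Unadjusted, 6 of the 38 had a p below 0.05, beside 9.23% of all genes tested. The median log2 fold change of the 38 was -0.13, with 26 below 0 and 12 above. Over all genes tested the median was 0.0065, with 7188 below 0 and 7735 above. The ages did not overlap in 5 of the 38, with 1 higher in aged (6.3% of all genes) and 4 lower (7.49%).

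In uptake and plasma transport, the sterol transporter Npc1l1 stood at 255 to 284 CPM in aged and 220 to 299 CPM in young libraries, and Stra6l, a receptor for the plasma retinol carrier, at 46.0 to 53.1 CPM in aged and 44.4 to 60.0 CPM in young libraries. Among esterifying and hydrolysing enzymes, Dgat1, which can also esterify retinol, had a log2 fold change of 0.0081 and Lipe, a lipase, 0.23 (edgeR adjusted p = 0.993 and 0.544). Of the 15 tested enzymes between retinol and retinal, 12 had log2 fold changes below 0, beside 7188 of all 14923 genes tested, and none was called. The alcohol dehydrogenase Adh1 was the most abundant, at 797, 556 and 967 CPM in aged replicates 1 to 3, against 1012, 504 and 953 CPM in young replicates 1 to 3, and Dhrs4 followed at 203 to 238 CPM in aged and 207 to 234 CPM in young libraries. Rdh7 held 3.59 to 5.45% of the summed CPM per kilobase of these enzymes and itself in aged and 5.76 to 6.39% in young libraries, a share that did not overlap between the ages. No test was made of this share, and in level the ages did not overlap in 13.8% of all genes tested.

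The binding proteins Rbp7 and Fabp5 had log2 fold changes of -0.12 and -0.23, the receptors Rxra and Rxrb, which pair with retinoic acid receptors, 0.02 each, and the retinoic acid targets Tgm2 and Cd38 0.10 and -0.10. The Cyp26 enzymes that break down retinoic acid were too low to test, with at most 0.132 CPM in any aged and 0.114 CPM in any young library. Aldh1a2 and Aldh1a3, further retinal dehydrogenases, were too low as well, at up to 0.0891 CPM in aged and 0.216 CPM in young libraries.

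**Figure D5:**
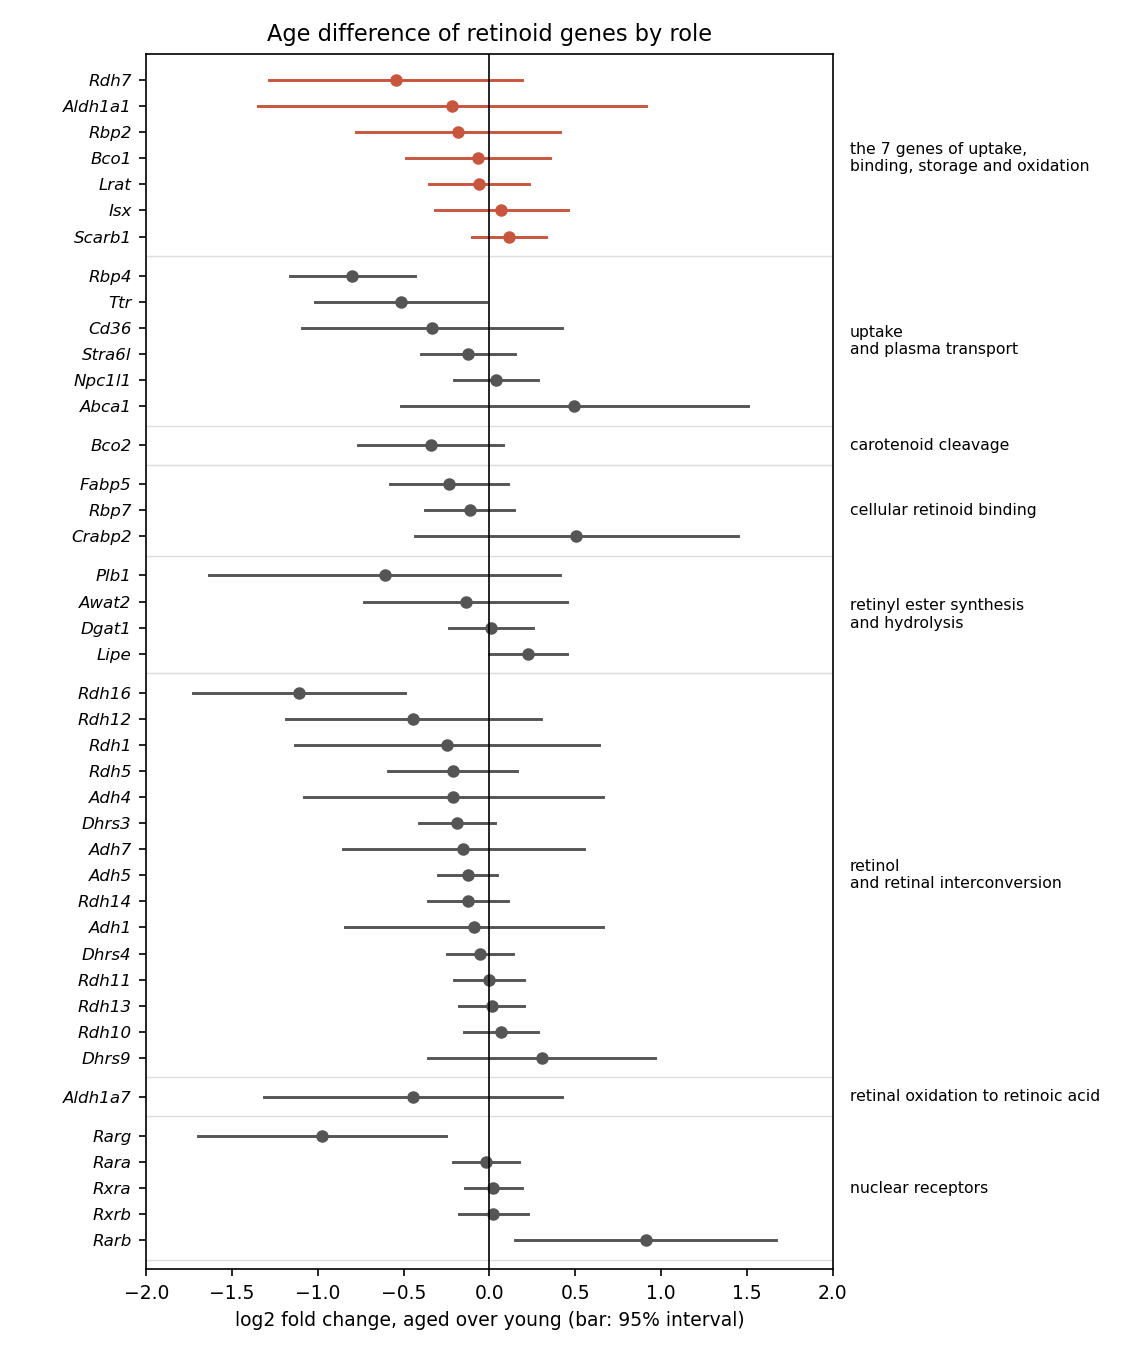
Log2 fold change, aged over young, of the 7 genes (orange, top) and of other tested retinoid genes shown by role (grey), with 95% intervals from the edgeR fit that are not adjusted for the number of genes. All 7 intervals of the top group include 0; those of Rbp4, Ttr, Rdh16, Rarg and Rarb do not, and none of these passed the test over all genes.

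The genes nearest to the threshold are named here after their values were seen. Rbp4, the plasma carrier of retinol, stood at 3.97, 3.95 and 5.10 CPM in aged replicates 1 to 3, against 7.62, 6.70 and 8.38 CPM in young replicates 1 to 3, without overlap. Its log2 fold change was -0.80 ± 0.16 (SE, edgeR adjusted p = 0.0551; DESeq2 adjusted p = 0.000533). Ttr, which binds Rbp4 in plasma, had a log2 fold change of -0.52 (edgeR adjusted p = 0.509). Both are liver products as well. A list of 4 hepatocyte genes, of which 3 were tested and none called, summed to 10.9 to 21.6 CPM in aged and 9.72 to 19.2 CPM in young libraries. Of the 3 tested, 2 had log2 fold changes above 0 and 1 below (median 0.70), with 1 at an unadjusted p below 0.05. The part of hepatocytes in the Rbp4 values was not tested.

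Rdh16, a relative of Rdh7 in the same cluster on chromosome 10, stood at 0.987 to 1.59 CPM in aged and 2.08 to 3.39 CPM in young libraries, also without overlap. Its log2 fold change was -1.11 ± 0.27 (SE, edgeR adjusted p = 0.117; DESeq2 adjusted p = 0.0091). The retinoic acid receptors Rarg and Rarb differed in sign, at -0.97 and 0.91 (edgeR adjusted p = 0.284 and 0.377), both at no more than 2 CPM in any library. For these 2 receptors the ages did not overlap.

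Hnf4a, a regulator of the absorptive lineage, stood at 1584 to 1782 CPM in aged and 1479 to 1701 CPM in young libraries, and 0 of 8 tested intestinal transcription factors were called, nor did any have an unadjusted p below 0.05 by edgeR, the one tool whose calls were counted for these and the next lists. Among absorptive enterocyte genes 0 of 14 were called by edgeR, with 3 at an unadjusted p below 0.05, beside 9.23% of all genes tested. The most abundant, Vil1 and Anpep, had log2 fold changes of 0.0075 and 0.18. Villus tip genes (median 0.08 over 6, Apoa4 and Klf4 at -0.80 and 0.05), villus base genes (-0.13 over 5, Lypd8 and Nlrp6 both at -0.13), proximal genes (-0.11 over 6, Gata4 and Fabp1 at 0.07 and 0.05) and distal genes (-0.18 over 6, Slc51a and Slc51b at -0.34 and -0.03) held no gene called by edgeR, with 2, 1, 2 and 1 at an unadjusted p below 0.05, beside 9.23% of all genes tested. The genes named are the most abundant and do not show the range of their lists. Log2 fold changes ran from -2.03 to 0.98 in villus tip genes (4 above 0, 2 below) and from -0.13 to 1.46 in villus base genes (2 above, 3 below). They ran from -1.09 to 0.11 in proximal genes (3 above, 3 below) and from -2.36 to 0.20 in distal genes (2 above, 4 below).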

How the data were processed

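The authors deposited raw read counts per gene, which are whole numbers with unequal column totals, 1 column per library. The submitters' processing notes name GRCm38, STAR and featureCounts 1.6.4 among other tools, with no role or order; which annotation was counted, and whether by strand, is not given in the sources used here. Columns were matched to samples by the library name in the titles, ages came from the age label, and replicates were numbered in record order, which pairs nothing. No libraries of a group agreed within sampling noise (chi-square per gene at least 24.996).

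Genes were kept by filterByExpr (minimum count 10), scaled by TMM and tested with edgeR 4.0.16 (robust quasi-likelihood test, age as the only term, 6 libraries, R 4.3.3), with Benjamini-Hochberg adjustment over 14923 genes and a threshold of 0.05. All 7 genes passed the filter. The SE is the log2 fold change over the square root of F. Log2 CPM used a prior count of 2. Exon lengths and gene positions came from GENCODE M21, which held 45143 of the 46078 gene IDs, and promoters from RefSeq. A count of 0 allows up to 3 counts (0.0509 to 0.0723 CPM), and such limits cover counting error only. The fit was tested on simulated counts. Alternatives were DESeq2 1.42.0, limma-voom 3.58.1, other scalings and filters, non-robust estimation, a fit with 1 surrogate variable from sva 3.50.0, and each library left out in turn.

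The 7 genes, the gene lists and the tests were chosen with earlier results of these data known. The 7 genes were named whatever their result, and from each retinoid, regulator, enterocyte, villus and regional list the called genes or else the 2 most abundant tested ones. For the 3 of the 7 genes with the highest SD of log2 CPM the 5 genes of the most similar pattern, with a mean of at least 5 CPM, were named. The study's single-cell, ATAC-Seq and organoid assays were not analysed here, and 1 gene that the list counts include is not reported here.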

Additional observations from a re-analysis of the deposited data

How the results depend on the processing

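No paired analysis was possible because the labels give no replicate numbers. Each of the 7 genes was refitted in 16 alternatives, and 1 fit gave a call, that of Rdh7 without aged replicate 3 (log2 fold change -0.96, edgeR adjusted p = 0.0382). Rdh7 stayed below 0 and Scarb1 above 0 in all 16. Scaled to the enterocyte genes, the fold changes of Lrat (0.057) and Bco1 (0.020) turned sign, and with 1 surrogate variable those of Isx (-0.042) and Aldh1a1 (0.14). Over the fits that left out 1 library the log2 fold changes ran from -0.39 to 0.043 for Rbp2, -0.19 to 0.071 for Lrat, -0.19 to 0.0084 for Bco1 (0.0032 without aged replicate 2), -0.053 to 0.32 for Isx (-0.034 without young replicate 3), 0.077 to 0.17 for Scarb1, -0.65 to 0.11 for Aldh1a1 (0.091 without aged replicate 2) and -0.96 to -0.33 for Rdh7. In the same fits the log2 ratio difference ran from -0.0072 to 0.33 for Isx over Bco1, below 0 without young replicate 3, from -0.13 to 0.21 for Isx over Scarb1, above 0 without aged replicate 1 (0.041) or young replicate 2, from -0.077 to 0.37 for Lrat over Rbp2, below 0 without aged replicate 2, from -0.89 to -0.35 for Rdh7 over Lrat and from 0.21 to 0.53 for Aldh1a1 over Rdh7. Over all genes, 93 were called higher and 117 lower in aged; DESeq2 gave 206 and 276, no filter 168 and 245, a filter of 1 CPM in 3 libraries 67 lower, and leaving out 1 library 35 to 135 higher and 30 to 135 lower. Of the other retinoid genes 0 were called; DESeq2 and no filter each called 2 lower (Rdh16 and Rbp4), 1 surrogate variable 1 higher (Abca1) and 1 lower (Rbp4), and leaving out 1 library 0 to 3 lower, with 3 without young replicate 2 (Rdh16, Rbp4 and Bco2) and 1 without aged replicate 3 (Rbp4). The cause of these changes was not tested. Depth limits Bco1 most, at 146 to 258 counts per library.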
